A study of Mus musculus with 8 samples.

Results

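The genes described here encode 8 integrin subunits that bind collagen or laminin, taken by symbol from the 22274 genes of the deposited table. They are the collagen-binding alpha chains Itga1, Itga2, Itga10 and Itga11 and the laminin-binding chains Itga3, Itga6, Itga7 and Itgb4. Integrins are surface receptors made of 1 alpha and 1 beta chain, and they tie the matrix outside a cell to its actin or intermediate filaments. The alpha chains of this list pair with the common beta chain Itgb1, except that Itga6 also pairs with Itgb4. Cardiac fibroblasts hold and pull on fibrillar collagen through receptors of the first kind, and cells on a basement membrane hold laminin through those of the second.

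RNA was sequenced from primary murine cardiac fibroblasts, the matrix-producing cells of the heart, after transduction and 24 h with 5 ng/ml TGF-β, which turns fibroblasts into myofibroblasts. All libraries had TGF-β, and none without it was analysed here. There were 4 libraries labelled GFP, the empty vector control, and 4 labelled OEIRF7, for overexpression of interferon regulatory factor 7 (IRF7). The study's text names an adenovirus and the deposited description an adeno-associated virus. The adenovirus in the reagent list carries FLAG-tagged human IRF7 and EGFP under a CMV promoter. The genotype and age of the donor mice are not given in the sources used here. A legend that covers this RNA-seq together with other assays gives fewer biological replicates than the 4 libraries per group, without saying which assay is meant, and the labels do not tie libraries to cell preparations, so p-values measure only the spread between these libraries.

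Total counts were 24888589 to 27095611 in the libraries labelled GFP and 24454801 to 28658826 in those labelled OEIRF7. Mouse Irf7, examined as the targeted gene, had 2272 to 3680 counts in the libraries labelled GFP and 380 to 421 in those labelled OEIRF7 (log2 fold change -2.96, SE 0.12, edgeR adjusted p = 7.7e-11). The reagent list also holds an adeno-associated virus with mouse Irf7 under the periostin promoter. Reads of a human transgene may go uncounted on the mouse genome, while with the mouse gene this fall would go against the label, so every direction below is between libraries as they are labelled. All 8 fibroblast markers passed the filter on low counts, from Lum at 12.9 and Tcf21 at 58.3 to Col1a1 at 4560 CPM (counts scaled to library size) under the label GFP. Of these, 2 were higher and 4 lower under the label OEIRF7 at an adjusted p under 0.05 (edgeR). Over all tested genes, 29% were higher and 29.9% lower. Counts of higher and lower genes in each list below are to be read beside these shares. Tcf21, a transcription factor of resident fibroblasts, had a log2 fold change of -1.33. Of 6 cardiomyocyte markers only Tnnt2 passed the filter on low counts. Markers of endothelial cells summed to 207 to 235 CPM over all libraries and those of macrophages to 93.1 to 124 CPM, so RNA of such cells was present. In such bulk RNA, fewer cells of a type and less RNA per cell cannot be told apart.

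All 8 integrin genes passed the filter on low counts. Under the label OEIRF7, Itga2, Itga6 and Itga7 were higher, Itga1, Itga3 and Itga11 were lower, and Itga10 and Itgb4 did not pass the test. This was 3 of 8 higher and 3 of 8 lower at an adjusted p under 0.05 (edgeR), where 29% of the 13533 tested genes were higher and 29.9% lower. With a log2 fold change past 1 as well, Itga2 was higher and Itga1 and Itga3 were lower, against 4.66% of all tested genes higher and 3.89% lower. The 6 genes past the test did not overlap between the groups, as was true of 53.8% of all tested genes. Shares of 3 in 8 therefore lay near those of the whole table, and the sizes of the changes are what set single members apart from most genes.

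**Figure D1:**
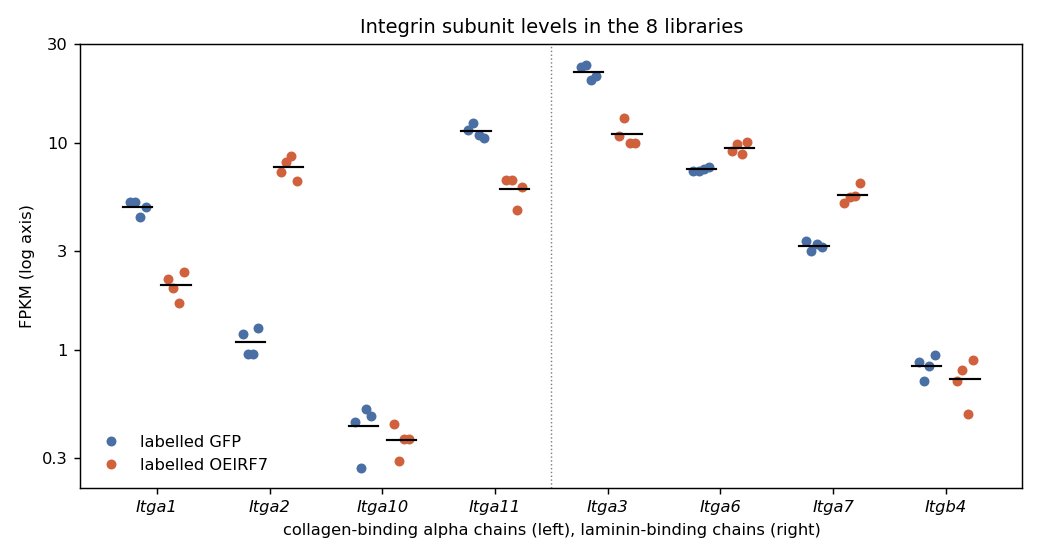
Level of each integrin subunit in FPKM (fragment counts scaled to gene length and library size, log axis), with 1 point per library and a line at the mean of 4 libraries. Itga2 rises from about the level of Itgb4 to a mean of 7.61 FPKM, while Itga1, Itga11 and Itga3 fall and the points of Itga10 and Itgb4 overlap.

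Itga2 gives the alpha chain of the integrin that platelets and epithelial cells use on fibrillar collagen. Its level was 8.55, 6.89, 6.89 and 9.19 CPM in the libraries labelled GFP, replicates 1 to 4, and 50.4, 56.4, 61.3 and 43.7 CPM in those labelled OEIRF7. The lowest library labelled OEIRF7 was thus far above the highest labelled GFP. The means were 7.88 ± 1.17 and 53.0 ± 7.63 CPM (SD, n = 4 each), a 6.71-fold rise. On the log2 scale this was 2.75 (SE 0.11, edgeR adjusted p = 7.7e-11). The exact permutation test, two-sided, gave p = 0.029, which 4 against 4 libraries cannot go below. Of all 13533 tested genes, 76 had a larger rise, and Itga2 stood at place 91 by the size of its change in either direction. The listed platelet markers summed to 4.81 to 7.37 CPM under the label GFP and 3.57 to 5.89 CPM under the label OEIRF7, with 1 of 3 tested genes higher and 2 lower (Itga2b, also an integrin subunit, is in this list). Of 7 epithelial and mesothelial markers, 5 were tested, 3 were higher and 1 lower, with sums of 60.3 to 73.4 and 45.6 to 53.7 CPM. Upk3b, a mesothelial marker, was the lower one, from a mean of 51.8 to 20.8 CPM (log2 fold change -1.32). Krt19, a keratin, rose from 4.75 to 18.5 CPM (log2 fold change 1.96). Cdh1 rose by 1.84 on the log2 scale with at most 14 counts in any library, and Msln by 0.19. Krt18 did not pass the test, and Epcam had at most 8 counts in any library. The part of the platelet, epithelial and mesothelial markers in the rise of Itga2 was not tested.

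Itga1, whose integrin favours the collagen IV of basement membranes, moved the other way. It had 57.3, 57.0, 48.7 and 54.3 CPM in the libraries labelled GFP and 23.8, 21.5, 18.4 and 25.9 CPM in those labelled OEIRF7. Every library of the second group was below every library of the first. The mean went from 54.3 ± 3.99 to 22.4 ± 3.23 CPM (SD, n = 4 each), 2.43-fold lower (log2 fold change -1.28, SE 0.085, adjusted p = 9.5e-09 from edgeR; exact permutation test, p = 0.029). Pelo, a ribosome rescue factor whose gene lies within Itga1 on the same strand without sharing an exon, had a log2 fold change of 0.10 (SE 0.064, adjusted p = 0.20 from edgeR). Of the exon bases of Itga1, 3.68% lie in exons of Gm49395 on the same strand, a gene with at most 22 counts in any library.

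Itga1 and Itga2 are neighbours. On GRCm38, Itga2 (ENSMUSG00000015533) spans chromosome 13 from 114833081 to 114932100 and Itga1 (ENSMUSG00000042284) from 114953096 to 115101964, both on the minus strand. The genes are 20995 bases apart, and their start sites 170 kb. Within 500 kb of the pair, 4 other genes were tested. Mocs2, a molybdenum cofactor enzyme just beyond the 3′ end of Itga2, was higher, with a log2 fold change of 0.73 (SE 0.045, adjusted p = 4.9e-09 from edgeR). Fst, the activin antagonist follistatin, was lower, with -0.95 (SE 0.040, adjusted p = 1e-10 from edgeR). Ndufs4 and Pelo did not pass the test. Along this stretch, the adjoining Mocs2 and Itga2 were thus both higher, while Fst and Itga1 were lower. Mocs2 is on the plus strand, so it and Itga2 meet at their 3′ ends.

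**Figure D2:**
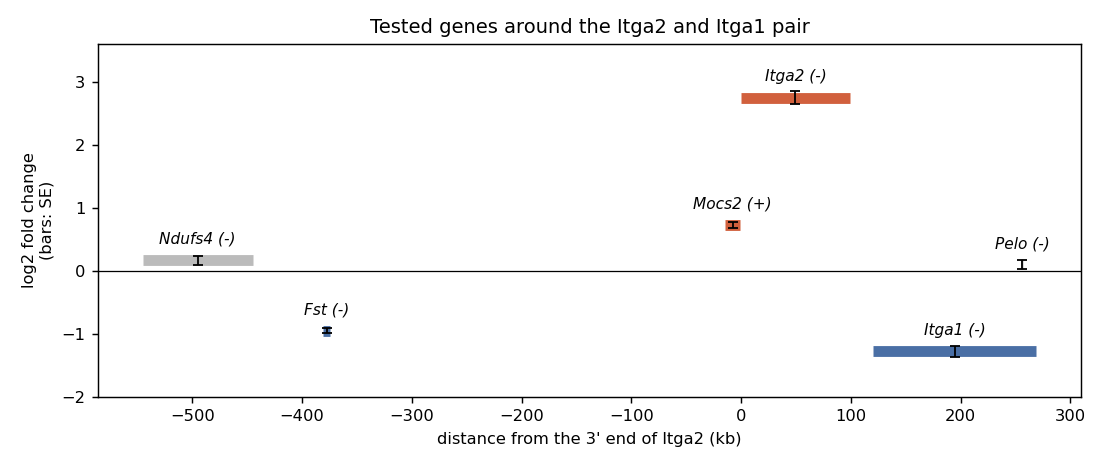
Log2 fold change (vertical axis, with SE bars) of the tested genes around Itga2 and Itga1, drawn over the extent of each gene in kb from the 3′ end of Itga2, with the strand in brackets. Itga2 at 2.75 and Itga1 at -1.28 lie side by side, and orange, blue and grey stand for higher, lower and not past the test.

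RefSeq promoters were at hand for 5 of the 8 genes, on GRCm38.p6. The bases just before the start sites of Itga1 and Itga2 are shown because these neighbours moved apart, and those of Itga3 because its window is the 1 with a repeat of the IRF type. Each is written 5′ to 3′ on the strand of the gene, up to the first annotated start, with matches to the motifs searched in capitals. The first window is chr13:115101965-115102214, the second chr13:114932101-114932350 and the third chr11:95076802-95076964, all on the minus strand.
Itga1: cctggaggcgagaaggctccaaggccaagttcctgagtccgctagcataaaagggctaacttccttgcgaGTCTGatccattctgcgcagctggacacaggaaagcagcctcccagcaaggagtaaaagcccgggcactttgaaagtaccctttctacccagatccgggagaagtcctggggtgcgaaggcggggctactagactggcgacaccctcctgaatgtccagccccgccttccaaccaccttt
Itga2: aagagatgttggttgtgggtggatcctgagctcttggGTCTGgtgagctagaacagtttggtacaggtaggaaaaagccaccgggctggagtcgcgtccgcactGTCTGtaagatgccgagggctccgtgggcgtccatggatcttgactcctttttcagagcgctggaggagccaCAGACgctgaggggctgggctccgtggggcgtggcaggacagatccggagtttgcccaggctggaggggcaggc
Itga3: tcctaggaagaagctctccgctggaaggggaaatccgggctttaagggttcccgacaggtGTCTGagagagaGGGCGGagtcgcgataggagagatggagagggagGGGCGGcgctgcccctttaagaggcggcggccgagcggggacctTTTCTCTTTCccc

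The motifs were searched on both strands in the 250 bases before each start, and matches to different motifs did not overlap in the windows shown. The box CAGAC, bound by SMAD proteins downstream of TGF-β, occurred 3 times before Itga2 and 1 time each before Itga1 and the upstream start of Itga3. Of all 32851 promoters, 42.2% hold it at least 1 time, and how many hold it 3 times was not counted. The repeat GAAA, any 2 bases, GAAA, occurred 1 time, 100 bases before the upstream start of Itga3, and 2.98% of all promoters hold it. The element to which the study says IRF factors bind has a C after this repeat, and the search left that base out. The match before Itga3 has an A there, so it is not the full element. The site TGANTCA of AP-1 occurred before none of the 5 genes, against 6.75% of all promoters. The box GGGCGG of Sp1-type factors occurred before Itga3 alone, at both of its starts, against 32.7% of all promoters. No match was found before Itga10 or Itga11. These are letters within a window and do not show binding.

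Itga11, the collagen receptor chain of fibroblasts that is known to mark myofibroblasts, fell. Its level was 57.7, 62.3, 54.7 and 53.3 CPM in the libraries labelled GFP and 32.5, 32.4, 23.5 and 30.1 CPM in those labelled OEIRF7. Replicate 3 was the lowest of the latter, and the groups did not overlap. The means were 57.0 ± 3.97 and 29.6 ± 4.23 CPM (SD, n = 4 each), 1.92-fold lower (log2 fold change -0.94, SE 0.084, adjusted p = 2.2e-07 from edgeR; exact permutation test, p = 0.029). The gene (ENSMUSG00000032243) lies on the plus strand of chromosome 9 from 62677826 to 62783982 and shares no exon with another gene.

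Itga10, a collagen receptor chain best known from cartilage, was at the bottom of the list. It had 62, 34, 65 and 64 counts in the libraries labelled GFP and 56, 42, 47 and 46 in those labelled OEIRF7, which overlap. The log2 fold change was -0.26 (95% interval -0.79 to 0.27, adjusted p = 0.32 from edgeR). Of its exon bases, 33.5% lie in exons of Gm42957 on the same strand, a gene with at most 13 counts in any library, and how reads in shared exons were assigned is not stated.

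Within the collagen-binding chains the balance turned over. FPKM, which are scaled to gene length, allow levels of different genes to be compared. Of the summed FPKM of the 4 chains, Itga11 held 63.8% ± 2.09, Itga1 27.5% ± 0.994 and Itga2 6.19% ± 1.0 in the libraries labelled GFP (SD, n = 4). In those labelled OEIRF7, Itga2 held 47.5% ± 6.11, Itga11 37.4% ± 4.51 and Itga1 12.9% ± 2.0 (SD, n = 4). Itga2 was above Itga11 in 4 of 4 libraries labelled OEIRF7 and below it in 4 of 4 labelled GFP. The sum itself moved little by comparison, from 17.8 ± 0.930 to 16.1 ± 0.749 FPKM (SD, n = 4 each), with 1 library of the second group inside the range of the first.

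**Figure D3:**
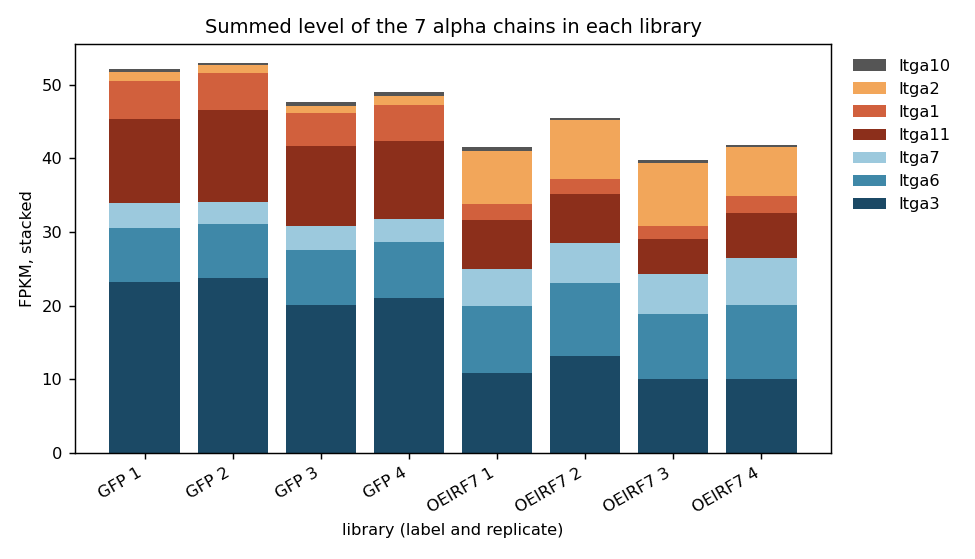
FPKM of the 7 alpha chains stacked in each of the 8 libraries, with laminin-binding chains in blue at the bottom and collagen-binding chains in red and orange above. The sum goes from 47.63 to 52.9 FPKM under the label GFP to 39.77 to 45.47 under the label OEIRF7, and the Itga2 segment widens as those of Itga3, Itga11 and Itga1 narrow.

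Itga3, a laminin receptor chain known from epithelia and kidney, was the most abundant alpha chain of the list under the label GFP, and it fell. It had 100.3, 98.2, 93.6 and 92.8 CPM in the libraries labelled GFP and 45.0, 44.2, 48.7 and 45.5 CPM in those labelled OEIRF7. The spread within each group was small beside the gap between them. The means were 96.2 ± 3.59 and 45.9 ± 1.94 CPM (SD, n = 4 each), 2.10-fold lower (log2 fold change -1.07, SE 0.042, adjusted p = 5.7e-11 from edgeR; exact permutation test, p = 0.029). Itga3 (ENSMUSG00000001507) lies on the minus strand of chromosome 11 from 95044474 to 95076801.

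Itga7, the laminin receptor chain of skeletal and smooth muscle, rose. Its level was 13.7, 12.2, 13.1 and 12.7 CPM in the libraries labelled GFP and 20.4, 21.8, 22.1 and 25.3 CPM in those labelled OEIRF7, without overlap. The mean went from 12.9 ± 0.625 to 22.4 ± 2.10 CPM (SD, n = 4 each), 1.73-fold higher (log2 fold change 0.79, SE 0.074, adjusted p = 3.6e-07 from edgeR; exact permutation test, p = 0.029). Of 6 mural cell markers, 5 were tested, with 2 higher and 2 lower and sums of 68.9 to 76.0 CPM under the label GFP and 79.0 to 98.8 CPM under the label OEIRF7. Cspg4 rose from a mean of 22.4 to 63.3 CPM and Rgs5 from 4.17 to 6.92 CPM. Notch3 fell from 41.4 to 13.6 CPM and Myh11 from 3.47 to 1.76 CPM, so the sum does not speak for the whole list. The part of these markers in the rise of Itga7 was not tested. Itga7 (ENSMUSG00000025348) is on the plus strand of chromosome 10 from 128933818 to 128958282, and 9 of its exon bases lie opposite Mettl7b, which had at most 10 counts in any library.

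Itga6, which binds laminin with Itgb1 or Itgb4, rose by a smaller amount. Its level was 31.8, 31.6, 32.5 and 33.1 CPM in the libraries labelled GFP and 38.7, 42.0, 37.4 and 42.9 CPM in those labelled OEIRF7. The groups were apart, and the ratio of their levels was 1.25 (log2 fold change 0.32, SE 0.052, adjusted p = 9.8e-05 from edgeR; exact permutation test, p = 0.029). Of all tested genes, 41.5% changed by as much or more in either direction. Of 6 endothelial markers, 2 were higher and 1 was lower, and their part in this rise was not tested. The gene (ENSMUSG00000027111) is on the plus strand of chromosome 2 from 71745616 to 71858416.

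Itgb4, the beta chain that joins Itga6 in the hemidesmosomes of epithelia, did not follow its partner. Counts of Itgb4 were 136, 107, 119 and 143 in the libraries labelled GFP and 102, 131, 74 and 127 in those labelled OEIRF7, with overlap. The log2 fold change was -0.25 (95% interval -0.63 to 0.13, adjusted p = 0.19 from edgeR). At 0.840 FPKM under the label GFP and 0.722 under the label OEIRF7, it was far below Itga6 at 7.44 and 9.48 FPKM. Of its exon bases, 7.66% lie opposite exons of a long noncoding RNA, B230344G16Rik. Schwann cells also use Itgb4, and their markers summed to 33.5 to 39.2 CPM under the label GFP and 30 to 33.7 CPM under the label OEIRF7, with 1 of 4 tested genes lower. Their part was not tested.

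**Figure D4:**
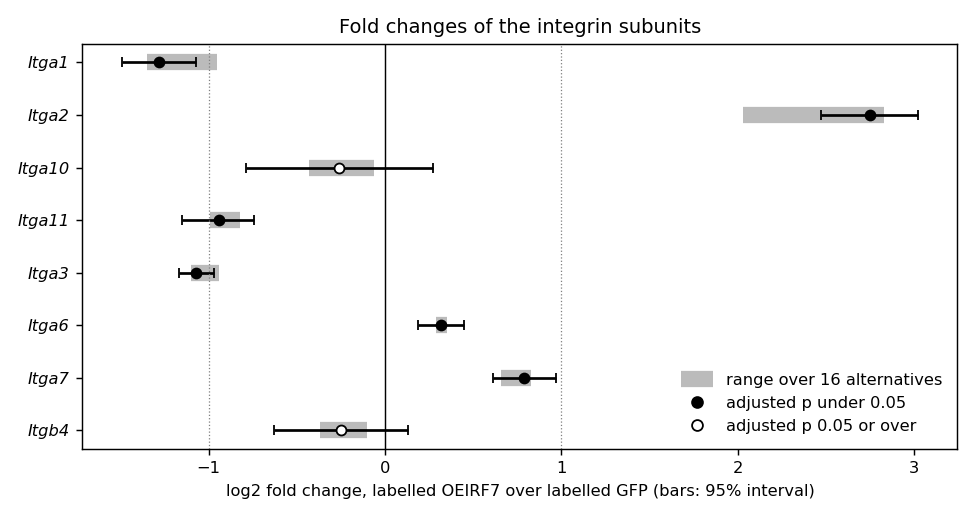
Log2 fold change of each integrin subunit (points, with 95% intervals as bars; filled where the adjusted p is under 0.05) and, in grey, its range over 16 alternative ways of processing. Itga2 stands at 2.75, Itga1, Itga3 and Itga11 between -1.28 and -0.94, and the intervals of Itga10 and Itgb4 include 0.

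The order of the levels in FPKM changed with these shifts. Under the label GFP it was Itga3 (22), Itga11 (11.4), Itga6 (7.44), Itga1 (4.90), Itga7 (3.18), Itga2 (1.10), Itgb4 (0.840) and Itga10 (0.430), and no gene overlapped the next. Under the label OEIRF7 it was Itga3 (11.0), Itga6 (9.48), Itga2 (7.61), Itga11 (6.02), Itga7 (5.62), Itga1 (2.06), Itgb4 (0.722) and Itga10 (0.368). There the ranges of Itga3 and Itga6 overlapped, as did those of Itga2 and Itga11 and those of Itga11 and Itga7. Among the 7 alpha chains, Itga3 held 43.6% ± 1.31 of the summed FPKM under the label GFP and 26.0% ± 2.16 under the label OEIRF7 (SD, n = 4 each). Itga2 went from 2.18% ± 0.345 to 18.1% ± 2.57, Itga6 from 14.8% ± 1.02 to 22.5% ± 1.07 and Itga7 from 6.33% ± 0.465 to 13.4% ± 1.45 (SD, n = 4 each). Taking CPM per kilobase of annotated exon in place of the deposited FPKM gave other shares under the label OEIRF7. These were Itga3 26.8%, Itga2 24.7%, Itga11 19.2% and Itga6 14.9%. By this measure Itga2 was above Itga3 in replicate 2 (25.7% and 25.2%) and replicate 3 (28.7% and 28.5%), and below it in the other libraries of that label. The place of Itga6 beside Itga2 and Itga11, and the margin of Itga3 over Itga2, thus rest on the gene lengths used.

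The common beta chain Itgb1 was more abundant than all 7 alpha chains together in each library. It had 508 ± 9.69 FPKM under the label GFP and 592 ± 9.96 FPKM under the label OEIRF7 (SD, n = 4 each), with a log2 fold change of 0.19 in the counts (SE 0.025, adjusted p = 1.2e-05 from edgeR). The ratio of Itgb1 to the summed FPKM of these 7 chains was 9.46 to 10.8 in the libraries labelled GFP. In those labelled OEIRF7 it was 13.0 to 15.2. Alpha chains outside the list are not in this sum. Among them, Itgav had 83.5 FPKM under the label GFP and 86.4 under the label OEIRF7, and Itga5 had 65.1 and 181. Itga4 had 10.9 and 8.52 FPKM, and Itga9 had 9.98 and 15.1. The ratio therefore does not give the balance of Itgb1 with all alpha chains.

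The other integrin subunits give the setting. Of 18 such genes 15 were tested, 7 were higher, 5 were lower and 3 did not pass, with a median log2 fold change of 0.19 against 0.00 over all tested genes. Past 2-fold and at 1 CPM or more on average, Itgb3, Itga5 and Itgam were higher. Itga5, the fibronectin receptor chain, rose from 288 ± 25.2 to 785 ± 44.1 CPM (SD, n = 4 each, log2 fold change 1.45). Itgb3, a chain of vitronectin and fibrinogen receptors, had a log2 fold change of 1.68. Itgam, a leukocyte chain, had 1.07. The listed macrophage markers summed to 93.1 to 107 CPM under the label GFP and 111 to 124 CPM under the label OEIRF7, with 3 of 6 higher and none lower, and their part in the rise of Itgam was not tested.

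On the ligand side, 18 of 20 collagen chains were tested, 1 was higher and 15 were lower, with a median log2 fold change of -0.27. Col6a1, a chain of the beaded collagen VI, fell from 212 ± 8.94 to 74.0 ± 1.64 CPM (log2 fold change -1.52). Col5a3, a minor fibrillar chain, rose from 17.6 ± 1.94 to 57.7 ± 3.67 CPM (log2 fold change 1.71). Col1a1, the main chain of collagen I, had -0.16 and Col4a1, of the basement membrane, -0.73, both past the test. Of 11 laminin chains 10 were tested, 5 were higher and 3 were lower, with a median of 0.08. Lamb3 and Lama3, chains of the epithelial laminin-332, were higher by 1.65 and 1.24 on the log2 scale at under 6 CPM. Lama1 was lower, with -1.09 and under 2 CPM. Lamc1, the gamma chain of most laminins, had 1120 ± 11.7 and 822 ± 33.2 CPM (log2 fold change -0.44, past the test; SD, n = 4 each).

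Among 24 partners and adaptors of integrins, 8 were higher, 9 were lower and 7 did not pass, with a median of -0.04. Col17a1, a hemidesmosome collagen, and Fermt1, an epithelial kindlin, were the members past 2-fold, with log2 fold changes of 2.64 and 1.88. They had 2.53 and 3.66 CPM under the label OEIRF7. Cd151, the tetraspanin that binds laminin receptors, had -0.07 (SE 0.031, adjusted p = 0.086 from edgeR). Of 10 other receptors for collagen and laminin 9 were tested, 1 was higher and 6 were lower, none of them past 2-fold. The collagen receptor kinase Ddr1 had -0.71 and Ddr2 -0.25, both past the test. These 2 genes, Cd151, Lamc1, Col1a1 and Col4a1 were chosen after their values were seen.

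**Figure D5:**
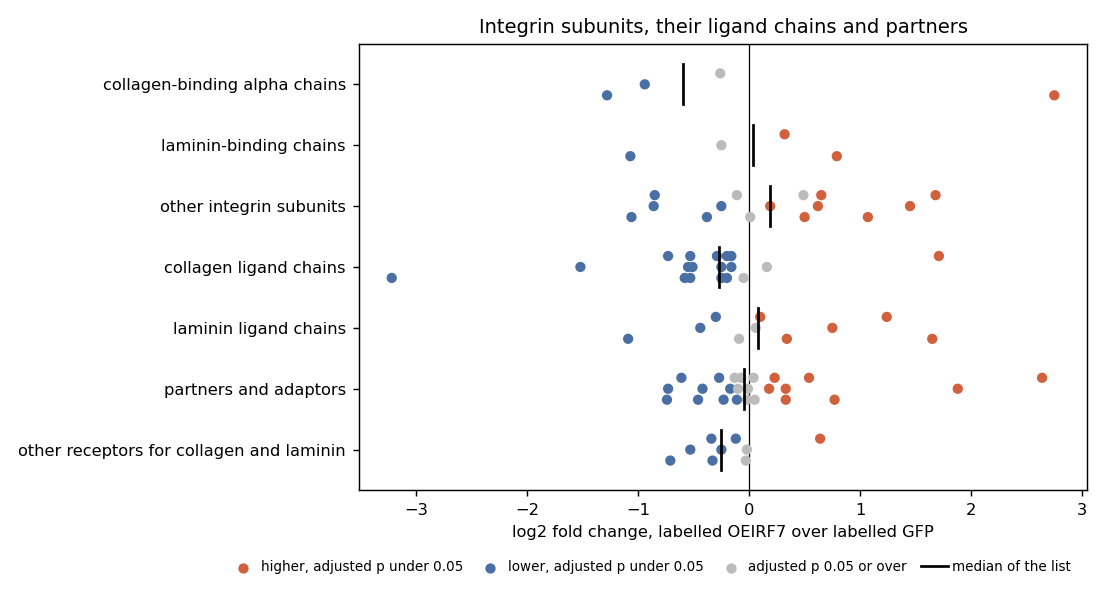
Log2 fold change of every tested gene in 7 lists of integrin subunits, their ligand chains and their partners, with 1 point per gene, coloured by direction where the adjusted p is under 0.05, and a black line at the median of the list. Most collagen chains lie left of 0, with a median of -0.27, and Itga2 at 2.75 is the point farthest right.

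The genes most like the 3 members past 2-fold were sought over all 8 libraries by the correlation of log2 CPM among 10319 other genes with a mean of at least 5 CPM. For Itga2 these were Etf1, Cep170 and Zeb2 (Pearson r of 0.999, 0.998 and 0.998). For Itga1 they were Ptpn9, Tgfbr2 and Ptp4a3 (0.999, 0.999 and 0.998), and for Itga3 Wdr6, Efr3a and Golm2 (0.999, 0.998 and 0.998). With 2 groups such values mostly repeat the difference between them, and 1238 to 1310 genes had an r above 0.95 with each of the 3. All points share their libraries, so this is a description of likeness and no more.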

How the data were processed

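RNA-seq counts and FPKM were analysed for 8 libraries of TGF-β-treated cardiac fibroblasts, 4 labelled GFP and 4 labelled OEIRF7. Per the methods, the authors trimmed reads with Trimmomatic, mapped them to GRCm38 with HISAT2, obtained gene counts with HTSeq-count, and deposited these raw counts. They also deposited FPKM from Cufflinks, rounded to 2 decimals. Versions and the strand setting are not given in the sources used here, and the kits for extraction and libraries are not the same in labels and methods. Group means of FPKM, a log2 fold change, a p-value and an FDR in the table are the authors' own comparison and were not used.

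Counts were analysed with edgeR 4.0.16 in R 4.3.3. Genes were kept by filterByExpr (13533 of 22274), scaled by TMM and compared by the quasi-likelihood test (glmQLFit, then glmQLFTest) on the group alone. P-values were adjusted over all tested genes by Benjamini-Hochberg. The SE is the log2 fold change divided by the root of F, and 95% intervals use 6 degrees of freedom. Log2 CPM used a prior count of 2, and the exact two-sided permutation test compared its group means. Depth limits genes of few counts most, and intervals cover the spread between these libraries. Any 2 replicates differed by more than sampling noise (chi-square over its degrees of freedom 2.91 to 9.94). Of the identifiers, 22219 were found in GENCODE M21 (GRCm38), which gave positions and exon lengths. In 121 symbols the letters nc had been replaced by GFP, and these were restored by identifier. Promoters came from RefSeq, and motifs were searched as exact letters.

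The members and lists were chosen with earlier results of these data known. Named beside the members were, per list, up to 3 genes in each direction past 2-fold at 1 CPM or more, Itgb1, and the 3 tested genes most correlated with each member past 2-fold. Alternatives were DESeq2 1.42.0, other scalings and filters, a block for the replicate number, each library left out in turn, and limma 3.58.1 on log2 FPKM with a pseudocount of 1 or 0.1, where the mean FPKM was above 0.1. The tests were tested on simulated data with changes of 2-fold only. Smaller changes, and the relation of libraries to cell preparations, were not covered by it.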

Additional observations from a re-analysis of the deposited data

How the results depend on the processing

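All 8 fold changes kept their direction and their side of the threshold under each of the 16 alternatives. Itga2 lay between 2.03 and 2.83 on the log2 scale, Itga1 between -1.35 and -0.95, Itga3 between -1.10 and -0.94, Itga11 between -0.99 and -0.82, Itga7 between 0.66 and 0.83 and Itga6 between 0.29 and 0.35. The smallest sizes for Itga2, Itga1, Itga3, Itga11 and Itga7 came from limma on log2(FPKM + 1), which shrinks the changes of genes at low levels. On it no member was lower past 2-fold, a count of 0 in place of 2. Itga10 and Itgb4 stayed above the threshold, with adjusted p from 0.074 to 0.59 and from 0.063 to 0.49 (edgeR, DESeq2 and limma). Leaving out 1 library at a time moved Itga2 between 2.67 and 2.83. With the replicate number as a block, 3 members were higher and 3 lower, as without it. Deviations of libraries with the same number correlated at 0.079 to 0.138, and each correlated best with its own number, but the labels do not say that a number marks a shared preparation. Calls in the lists of other integrins, ligands, partners and other receptors were recomputed with DESeq2, other scalings and filters and the block, and stayed within 1.5 times of those given there. They were not recomputed without single libraries or with limma, and those of the marker lists under no alternative. Levels below about 2 CPM, as for Itga10, rest on few counts, and shares between genes move with the gene lengths used.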

Other observations

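Within the group labelled OEIRF7 the libraries were ordered differently by different members. Replicate 3 had the lowest CPM of Itga1, Itga11, Itga6 and Itgb4 and the highest of Itga2 and Itga3. Replicate 4 had the highest of Itga1, Itga6, Itga7 and Itgb4 and the lowest of Itga2. With 4 libraries these orders were not tested.

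For Itga3, the deposited FPKM and the CPM computed from the deposited counts ordered these libraries differently. Replicate 2 labelled OEIRF7 had the highest FPKM, 13.18 against 10.01 to 10.78 in the other 3, and the lowest CPM, 44.2. Both measures kept the 2 groups apart.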
